A study of Mus musculus with 18 samples.

Results

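The 39 genes described here carry a cell from G1 through the copying of its DNA. They were chosen by name from the 34714 genes of the deposited table, with no filter on level, and comprise the G1 cyclins with 2 E2F activators, the origin licensing factors with the MCM helicase, the replicative polymerases with their clamp and ligase, the enzymes that supply deoxynucleotides, and factors that rebuild chromatin behind the fork. RNA was sequenced from mouse hearts in 18 libraries of 4 groups: wild type after sham surgery (4 libraries), wild type after transverse aortic constriction (TAC, in which a narrowed aorta forces the left ventricle to pump against high pressure; 5), Kcp knockout after sham surgery (4) and Kcp knockout after TAC (5). The mice were C57, and the design asks what loss of KCP (kielin/chordin-like protein, a secreted modulator of BMP and TGF-beta signalling) does to a pressure-loaded heart. The label gives the tissue as heart, so the RNA came from all cell types of the sample. The sources used here do not give how the allele was made, the time after surgery, or the age and sex of the mice.

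In G1, D-type cyclins with CDK4 or CDK6, and then E-type cyclins with CDK2, phosphorylate the RB family and free E2F factors, which switch on the genes for DNA replication. Origins are licensed when ORC, CDC6 and CDT1 load the MCM2 to MCM7 ring, and the ring becomes an active helicase together with CDC45 and the GINS complex. Most adult cardiomyocytes have left the cell cycle, and the loaded heart is known for proliferating fibroblasts, macrophages and endothelial cells. The library RNA is bulk RNA, so a change in the number of cells of a type and a change in RNA per cell cannot be told apart.

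Levels are given in FPKM (fragments scaled by transcript length and library total), a unit inferred from the values, and the depth of the libraries is unknown. Kcp itself was lower in knockout libraries but not absent: after sham it was at 1.03 ± 0.279 FPKM (SD, n = 4) in wild type and 0.665 ± 0.00891 FPKM (n = 3) in knockout, and after TAC at 1.12 ± 0.204 FPKM (n = 5) and 0.762 ± 0.197 FPKM (n = 5). Knockout sham library 2 was left out of every fit because its library name joins those of libraries 3 and 4 of its group, which leaves 17 libraries. Knockout TAC library 4 also carries a joined name and was kept. The libraries fell into 2 sets by genes such as Ndufb4c, at 35.9 to 49.4 FPKM in one set and 4.47 to 11.2 in the other. The lower set held all knockout libraries and wild-type TAC library 5, so set and genotype can be separated only through that 1 library. Wild-type TAC library 5 also had less Nppa, the atrial natriuretic peptide gene that rises with load, than the rest of its group (646 FPKM against 1510 to 2669), as did knockout TAC library 2 (2191 against 3931 to 7472). Nothing in the labels states that libraries came from separate animals, so p-values measure the spread between these libraries.

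After TAC, the wild-type hearts showed no change in these genes that passed the test, while the knockout hearts showed a rise of 13 of the 39 and a fall of none. Differences were tested with limma on log2(FPKM + 1), a scale that understates the change of genes at low levels, with a Benjamini-Hochberg adjusted p under 0.05 over 23775 genes counted as passing. In wild type 0 members rose and 0 fell by limma, with 5 at an unadjusted p under 0.05, where 4.43% of all genes rose and 4.92% fell. In knockout the 13 that rose were 33.3% of the members, where 11.0% of all genes rose and 9.46% fell. The count of 13 depends on single libraries: it was 6, 5 and 7 without knockout sham library 1, 3 or 4, and 8 without knockout TAC library 1 or 3. The median log2 change of the 39 was -0.01 in wild type and 0.31 in knockout, and that of all genes was 0.00 in each. In the fit kept to genes that reached 1 FPKM in 3 libraries, 31 members were tested and 12 rose and 0 fell in knockout, against 21.1% and 17.7% of the 11937 genes in that fit. In wild type that fit called 2 members higher and 1 lower, against 10.7% and 11.2% of its genes. As a measure free of the test, the knockout TAC libraries lay above all knockout sham libraries for 12 of the 39 (30.8%) and below them for 0, where 12% of all genes lay above and 9.91% below. In wild type 0 members lay above without overlap and 1, Rrm1, lay below, where 5.86% of all genes lay above and 6.48% below. Of the 39, 31 met that filter and E2f1 met it through knockout TAC libraries alone. Ccne1 and Chaf1a each reached 1 FPKM in only 1 library outside knockout TAC, so they too needed knockout TAC libraries to meet it. E2f1, Ccne1 and Chaf1a are among the 12 that rose in that fit, and that count was not made again without them. Other members were not checked for this. The 8 members below the filter were Ccne2, E2f2, Orc1, Cdc6, Mcm10, Pole, Tyms and Chaf1b.

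**Figure D1:**
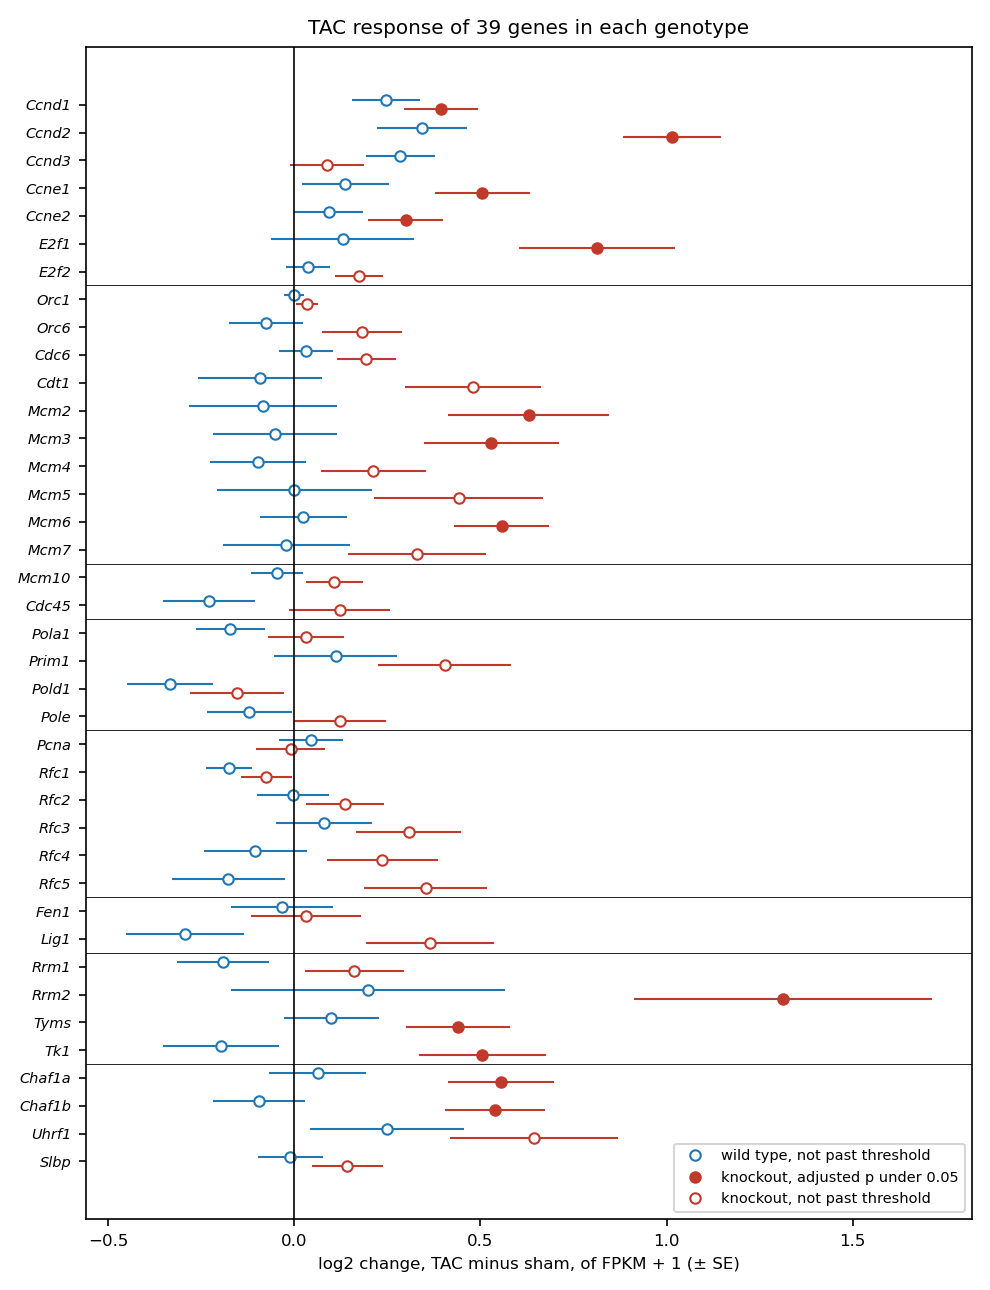
Log2 change of FPKM + 1 from sham to TAC for each of the 39 genes (rows, in order of role), in wild type (blue) and knockout (red), with bars of 1 standard error from limma on 17 libraries. Filled points passed an adjusted p of 0.05: 13 do so in knockout and 0 in wild type.

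By step of the pathway, the 13 members that rose were 5 of 7 G1 cyclins and E2F activators and 3 of 10 licensing and MCM genes. The rest were 3 of 4 deoxynucleotide enzymes and 2 of 4 chromatin and histone factors. Of all genes, 11.0% rose in knockout. Of the 2 helicase activation genes, 4 polymerase and primase genes, 6 clamp and clamp loader genes and 2 Okazaki fragment genes, 0 rose by limma, with 1 polymerase or primase gene, 2 clamp loader genes and 1 Okazaki fragment gene at an unadjusted p under 0.05. Differences in response between these steps were not tested. Among the 13, Ccnd1, Ccnd2, Ccne2, Chaf1a and Tk1 share exon bases with a gene on the opposite strand, and the sources used here do not say whether strand was counted.

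**Figure D2:**
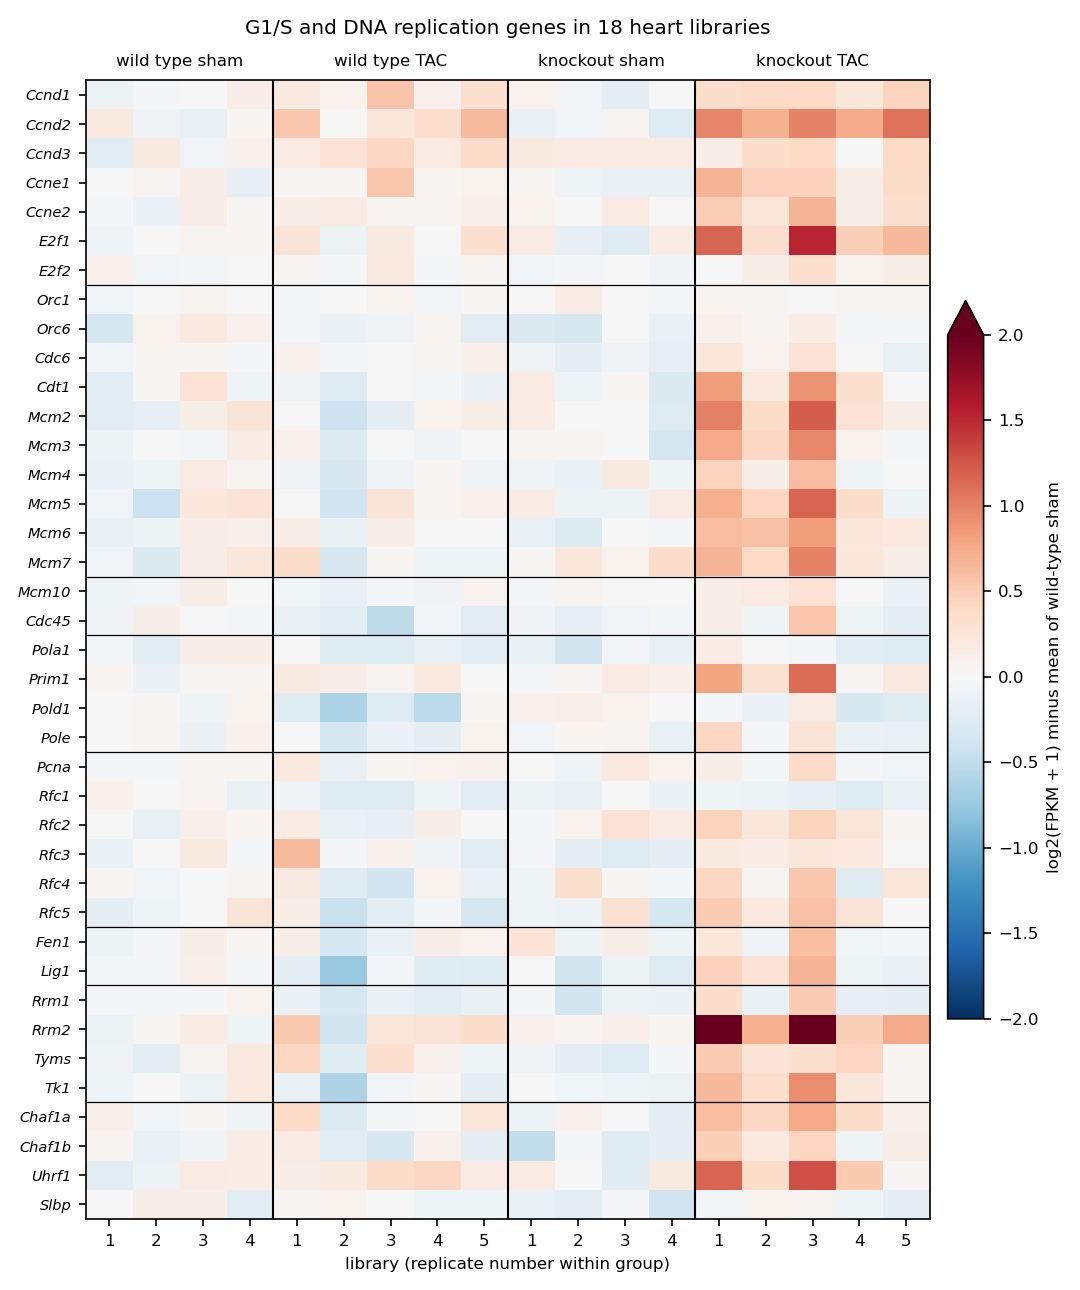
Log2(FPKM + 1) of the 39 genes (rows, grouped by role) in the 18 libraries (columns), each minus the mean of wild-type sham, with red above and blue below that mean and values past the end of the scale drawn in its darkest colour. Red is densest in knockout TAC libraries 1 and 3, and the Ccnd2 row is red in all 5 knockout TAC libraries.

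Ccnd2, which encodes cyclin D2, a partner of CDK4 and CDK6 (chr6:127125162-127152188, GRCm38), gave the smallest p of the 39. Its level was 23.2, 19.4, 18.4 and 21.0 FPKM in the 4 wild-type sham libraries and 30.0, 20.3, 23.6, 26.0 and 32.3 FPKM in the 5 wild-type TAC libraries. It was 18.5, 19.7, 21.3 and 16.9 FPKM in knockout sham and 41.1, 34.1, 41.7, 34.8 and 44.4 FPKM in knockout TAC. Every knockout TAC library stood above every library of the other groups, and wild-type TAC overlapped wild-type sham. The log2 change was 1.02 ± 0.13 (SE) in knockout (limma, Benjamini-Hochberg adjusted p = 4.65e-05), against 0.34 ± 0.12 in wild type (limma adjusted p = 0.0940). In the smaller fit of genes that reached 1 FPKM, the wild-type change of Ccnd2 passed as well (limma adjusted p = 0.0453).

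The other D-type cyclins were expressed at a like level per transcript length but moved less. Ccnd1 (cyclin D1) was at 17.4, 18.4, 18.9 and 20.9 FPKM in wild-type sham and 21.6, 19.9, 28.4, 20.2 and 23.9 FPKM in wild-type TAC. Its knockout libraries gave 19.8, 18.2, 16.6 and 18.9 FPKM after sham and 24.4, 25.01, 25.1, 21.99 and 26.1 FPKM after TAC. The knockout groups did not overlap, and Ccnd1 rose there by 0.39 ± 0.10 on the log2 scale (limma adjusted p = 0.00904), against 0.25 ± 0.09 in wild type (limma adjusted p = 0.109). Ccnd3 (cyclin D3), the member with the highest mean level, was at 27.5, 36.4, 30.8 and 33.9 FPKM in wild-type sham and 36.1, 39.4, 42.8, 36.1 and 42.1 FPKM in wild-type TAC. In knockout it was at 36.5, 35.9, 36.1 and 35.8 FPKM after sham and 35.3, 41.1, 42.6, 32.0 and 42.4 FPKM after TAC. Unlike Ccnd1 and Ccnd2, Ccnd3 overlapped between the knockout groups. Its log2 change was 0.29 ± 0.09 in wild type (limma adjusted p = 0.0652) and 0.09 ± 0.10 in knockout (limma adjusted p = 0.619), and the difference of these changes did not pass (-0.20 ± 0.14, limma adjusted p = 0.592). With the 1 FPKM filter the wild-type change of Ccnd3 passed (limma adjusted p = 0.0300).

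The E-type cyclins, which bind CDK2 at the entry to S phase, were at much lower levels. Ccne1 was at 0.777, 0.853, 0.953 and 0.596 FPKM in wild-type sham and 0.812, 0.812, 1.61, 0.842 and 0.874 FPKM in wild-type TAC, where library 3 stood alone. It was at 0.814, 0.679, 0.631 and 0.614 FPKM in knockout sham and 1.86, 1.45, 1.45, 0.969 and 1.30 FPKM in knockout TAC, with no overlap between those groups. The log2 change in knockout was 0.50 ± 0.13 (limma adjusted p = 0.00929). Ccne2 was at 0.504, 0.451, 0.608 and 0.434 FPKM in knockout sham and 1.03, 0.7097, 1.30, 0.562 and 0.802 FPKM in knockout TAC. Here 1 knockout TAC library fell within the sham range, and the rise of 0.30 ± 0.10 was near the threshold (limma adjusted p = 0.0451). Ccne2 was at 0.402, 0.329, 0.579 and 0.455 FPKM in wild-type sham and 0.569, 0.599, 0.476, 0.488 and 0.539 FPKM in wild-type TAC, which overlapped.

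E2f1, an activator of replication genes (chr2:154559400-154569892, GRCm38), was at 0.450, 0.500, 0.576 and 0.541 FPKM in wild-type sham and 0.809, 0.413, 0.709, 0.516 and 0.897 FPKM in wild-type TAC. It was at 0.693, 0.351, 0.269 and 0.686 FPKM in knockout sham and 2.39, 0.914, 3.37, 1.12 and 1.38 FPKM in knockout TAC. All 5 knockout TAC libraries were above every other library, and libraries 1 and 3 were far above the rest. The log2 change in knockout was 0.81 ± 0.21 (limma adjusted p = 0.0106). E2f2, a second activator, had means of 0.0613 ± 0.0272 FPKM (SD, n = 3) in knockout sham and 0.201 ± 0.0993 (n = 5) in knockout TAC, which did not overlap. Its change of 0.17 ± 0.06 did not pass (limma adjusted p = 0.0700).

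**Figure D3:**
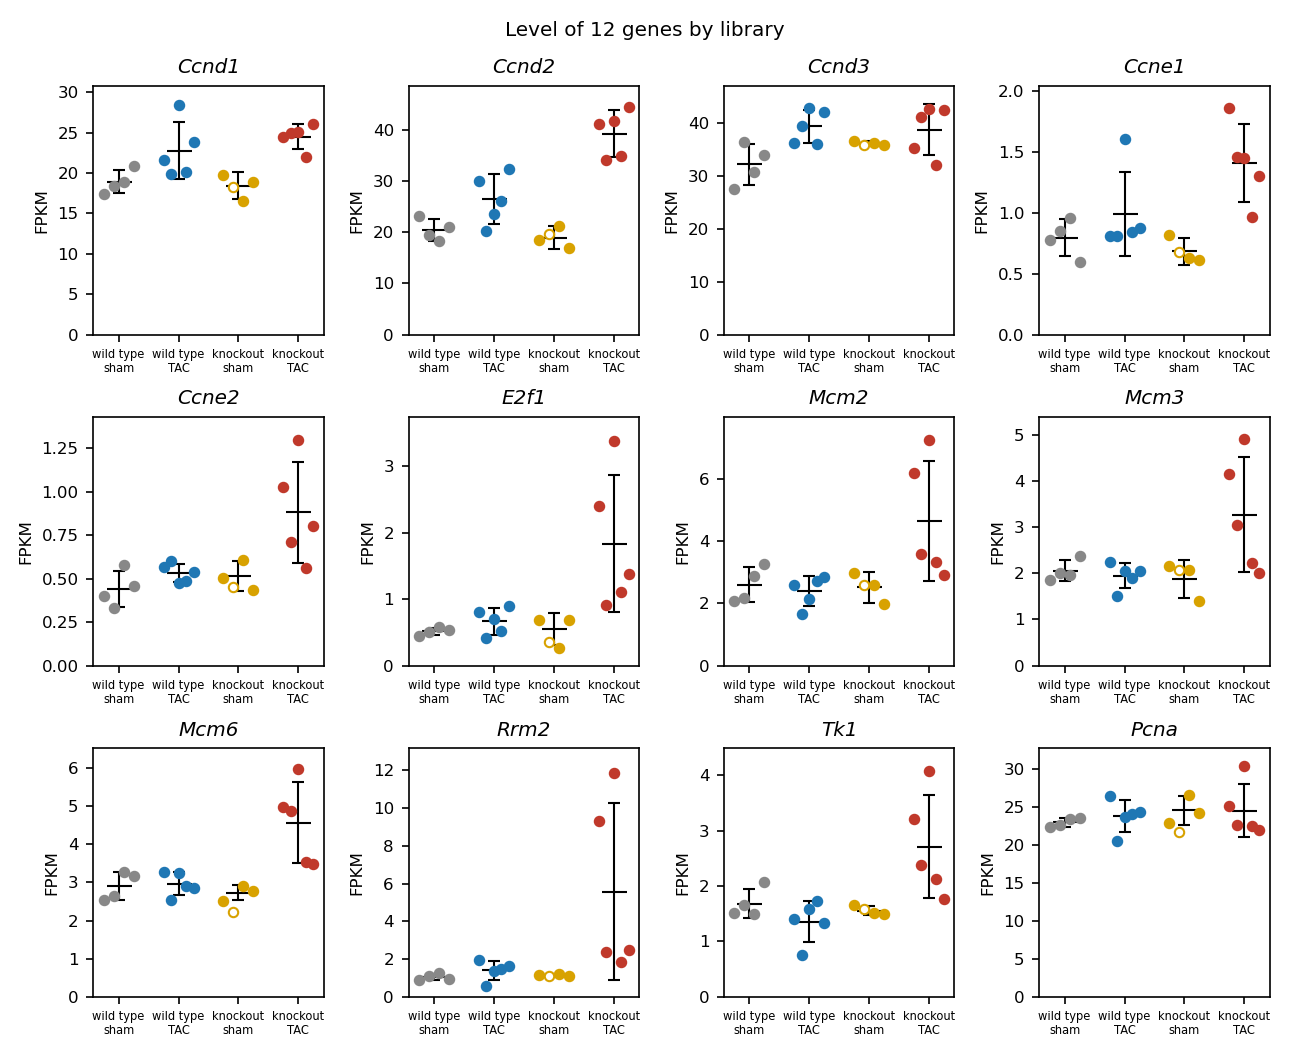
FPKM of 12 of the genes in each library (points), with the group mean and SD (bars) over the 17 libraries of the fit; the open point is knockout sham replicate 2, outside the fit. Ccnd2 and E2f1 separate knockout TAC from every other group, Mcm2, Mcm3, Rrm2 and Tk1 are drawn up by 2 libraries, and Pcna shows overlapping groups.

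Many licensing genes share a promoter sequence that E2F factors are known to bind, and the promoters of Mcm6, Mcm3 and Mcm5 are shown as examples that hold it. The windows run from 250 bases before to 50 bases after the start of the RefSeq transcript (GRCm38.p6, 300 bases, printed 5′ to 3′ on the strand of the gene). Capitals mark exact matches, on either strand, to any of 4 E2F words: TTTCCCGC, TTTGGCGC, TTTGCCGC and TTTCGCGC. Matches can overlap, as they do in Mcm6 and Mcm5. The windows of Mcm2, which rose in knockout, and of Orc6 held none of the words and are not shown. Mcm5 is shown although its rise in knockout did not pass. The Mcm6 window is chr1:128359656-128359955 (minus strand), that of Mcm3 is chr1:20820263-20820562 (minus strand) and that of Mcm5 is chr8:75109259-75109558 (plus strand). The Rrm2 window, chr12:24708004-24708303 (plus strand), is shown beside them as the member with the highest rise, in which none of the words was found.
Mcm6: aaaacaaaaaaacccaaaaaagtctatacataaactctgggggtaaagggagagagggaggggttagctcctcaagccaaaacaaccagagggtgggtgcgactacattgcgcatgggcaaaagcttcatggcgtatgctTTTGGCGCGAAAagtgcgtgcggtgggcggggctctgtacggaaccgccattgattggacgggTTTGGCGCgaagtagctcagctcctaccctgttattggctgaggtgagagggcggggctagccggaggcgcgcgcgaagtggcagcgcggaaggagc
Mcm3: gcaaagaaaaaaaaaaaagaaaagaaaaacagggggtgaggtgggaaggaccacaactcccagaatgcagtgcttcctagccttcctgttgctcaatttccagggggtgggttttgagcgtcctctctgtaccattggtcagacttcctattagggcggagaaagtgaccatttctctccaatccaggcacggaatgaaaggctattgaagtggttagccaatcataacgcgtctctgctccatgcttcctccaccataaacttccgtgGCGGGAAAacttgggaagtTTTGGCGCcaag
Mcm5: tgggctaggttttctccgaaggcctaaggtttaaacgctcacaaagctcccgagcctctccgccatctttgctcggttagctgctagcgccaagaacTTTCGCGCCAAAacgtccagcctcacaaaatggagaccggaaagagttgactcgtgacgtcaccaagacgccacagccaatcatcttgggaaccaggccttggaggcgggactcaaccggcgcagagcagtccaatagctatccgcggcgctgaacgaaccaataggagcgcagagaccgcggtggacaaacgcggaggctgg
Rrm2: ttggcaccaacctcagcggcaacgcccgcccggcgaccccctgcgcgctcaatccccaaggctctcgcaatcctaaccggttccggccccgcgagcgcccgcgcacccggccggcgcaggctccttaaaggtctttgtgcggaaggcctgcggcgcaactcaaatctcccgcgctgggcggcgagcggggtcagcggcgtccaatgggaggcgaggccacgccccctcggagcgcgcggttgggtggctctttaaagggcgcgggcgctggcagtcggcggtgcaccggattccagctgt

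Of the 33 members with a promoter in the RefSeq table, 13 held an E2F word (39.4%), against 3.52% of the 18429 genes of the fit with a promoter there. The 13 included 7 of 9 licensing and MCM genes and 0 of 4 deoxynucleotide genes. Among members that rose in knockout, 2 of 10 held a word, and among the other members 11 of 23 did. The share with a word was thus not higher among the members that rose, and a word missing from this window says nothing of E2F elsewhere. A CCAAT box, a common promoter element, stood in 21 of the 33 (63.6%) against 41.3% of genes in the fit. The CHR element of late cell cycle genes, searched as TTTGAA or TTCGAA on both strands, stood in 6 of the 33 (18.2%) against 18.9%.

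Mcm6 (chr1:128331575-128359705, GRCm38), a subunit of the helicase ring, was at 2.54, 2.64, 3.27 and 3.18 FPKM in wild-type sham and 3.28, 2.54, 3.26, 2.90 and 2.85 FPKM in wild-type TAC. In knockout it was at 2.51, 2.23, 2.92 and 2.78 FPKM after sham and 4.99, 4.87, 5.97, 3.53 and 3.48 FPKM after TAC. The knockout TAC libraries all stood above the other groups, and the wild-type groups overlapped fully. The log2 change was 0.56 ± 0.13 in knockout (limma adjusted p = 0.00471) and 0.02 ± 0.12 in wild type.

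The other subunits moved in the same direction in knockout, with less separation. Mcm3 was at 2.16, 2.08, 2.08 and 1.40 FPKM in knockout sham and 4.15, 3.05, 4.90, 2.21 and 2.005 FPKM in knockout TAC, against 1.85, 2.01, 1.97 and 2.38 FPKM in wild-type sham and 2.24, 1.51, 2.05, 1.91 and 2.05 FPKM in wild-type TAC. Knockout TAC libraries 4 and 5 lay at the level of the sham hearts, and the change of 0.53 ± 0.18 was just past the threshold (limma adjusted p = 0.0491). Mcm2 was at 2.97, 2.58, 2.59 and 1.99 FPKM in knockout sham and 6.18, 3.58, 7.26, 3.35 and 2.93 FPKM in knockout TAC. It too overlapped in 1 library, with a change of 0.63 ± 0.22 (limma adjusted p = 0.0499). Mcm4, Mcm5 and Mcm7 had log2 changes of 0.21, 0.44 and 0.33 that did not pass.

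Added up per library, the FPKM of the 6 MCM2 to MCM7 genes made 12.4, 11.8, 15.7 and 16.5 in wild-type sham and 15.6, 10.2, 14.2, 13.9 and 14.0 in wild-type TAC. The sum was 14.2, 13.7, 14.6 and 13.8 in knockout sham and 26.8, 20.3, 33.0, 16.6 and 15.1 in knockout TAC. All knockout TAC hearts were above all knockout sham hearts on this sum, but libraries 4 and 5 lay within the range of the wild-type hearts or just above it. Of the loading factors, Cdt1 had a change of 0.48 ± 0.18 (limma adjusted p = 0.0765) and Cdc6 one of 0.19 ± 0.08 (limma adjusted p = 0.101). Cdc6 was at 0.141, 0.0446, 0.142 and 0.0703 FPKM in knockout sham and 0.413, 0.261, 0.468, 0.202 and 0.0834 FPKM in knockout TAC, and at 0.160, 0.234, 0.228 and 0.188 FPKM in wild-type sham and 0.278, 0.164, 0.191, 0.223 and 0.294 FPKM in wild-type TAC. The ORC subunits Orc1 and Orc6 had changes of 0.03 and 0.18, and neither passed.

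Further along the fork, 0 genes passed in knockout by limma. For helicase activation, Mcm10 and Cdc45 had log2 changes of 0.11 and 0.12 in knockout. Pcna, the sliding clamp, was at a mean of 24.5 ± 1.89 FPKM (SD, n = 3) in knockout sham and 24.5 ± 3.50 (n = 5) in knockout TAC, with a log2 change of -0.01 ± 0.09. Pcna was thus abundant and level in mean while its partners in the fork were scarcer. The clamp loader genes Rfc2, Rfc3, Rfc4 and Rfc5 had changes of 0.14, 0.31, 0.24 and 0.35, and those of the polymerase and primase genes Pola1, Prim1 and Pole were 0.03, 0.40 and 0.12. Fen1 and Lig1, which trim and seal Okazaki fragments, had changes of 0.03 and 0.36. None of these passed, and Rfc3 was the gene among them whose knockout TAC libraries all stood above its knockout sham libraries.

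A pair of fork genes had their lowest p in wild type, with negative changes. Pold1, the catalytic subunit of polymerase delta, was at 3.24, 3.37, 3.04 and 3.47 FPKM in wild-type sham and 2.60, 1.75, 2.57, 1.95 and 3.33 FPKM in wild-type TAC. Its knockout libraries gave 3.52, 3.59, 3.50 and 3.23 FPKM after sham and 3.15, 2.92, 3.81, 2.48 and 2.64 FPKM after TAC. In wild type, TAC library 5 lay among the sham values and the other 4 below them. The log2 change was -0.33 ± 0.12 in wild type (limma adjusted p = 0.0877) and -0.15 ± 0.13 in knockout (limma adjusted p = 0.471). Without wild-type TAC library 5 the wild-type change was -0.42 and passed (limma adjusted p = 0.0180). Rfc1, the large clamp loader subunit, was at 6.73, 6.23, 6.52 and 5.60 FPKM in wild-type sham and 5.93, 5.04, 5.10, 5.85 and 5.25 FPKM in wild-type TAC. In knockout Rfc1 was at 5.76, 5.65, 6.25 and 5.66 FPKM after sham and 5.86, 5.77, 5.48, 5.07 and 5.53 FPKM after TAC. The groups overlapped in each genotype, and the wild-type change was -0.18 ± 0.06 (limma adjusted p = 0.0918).

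Among the enzymes that supply deoxynucleotides, Rrm2, the small subunit of ribonucleotide reductase that is made in S phase, had the highest rise of the 39. Rrm2 (chr12:24708254-24714146, GRCm38) was at 0.908, 1.08, 1.27 and 0.931 FPKM in wild-type sham and 1.94, 0.575, 1.38, 1.45 and 1.60 FPKM in wild-type TAC. It was at 1.17, 1.11, 1.20 and 1.09 FPKM in knockout sham and 9.32, 2.36, 11.9, 1.83 and 2.46 FPKM in knockout TAC. All knockout TAC libraries were above knockout sham, with libraries 1 and 3 standing far above the other 3. The log2 change was 1.31 ± 0.40 (limma adjusted p = 0.0281). Its partner Rrm1, the large subunit, had means of 3.87 ± 0.149 FPKM (SD, n = 3) in knockout sham and 4.56 ± 1.32 (n = 5) in knockout TAC, and its change of 0.16 ± 0.13 did not pass.

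Tk1, thymidine kinase of the salvage pathway, was at 1.65, 1.58, 1.52 and 1.501 FPKM in knockout sham and 3.21, 2.38, 4.08, 2.14 and 1.77 FPKM in knockout TAC. Its wild-type libraries gave 1.51, 1.65, 1.497 and 2.07 FPKM after sham and 1.40, 0.749, 1.58, 1.73 and 1.33 FPKM after TAC. The knockout groups did not overlap and the wild-type groups did. The rise in knockout was 0.51 ± 0.17 (limma adjusted p = 0.0456). Tyms, which makes thymidylate from deoxyuridylate, was at 0.339, 0.237, 0.178 and 0.384 FPKM in knockout sham and 1.02, 0.708, 0.765, 0.898 and 0.458 FPKM in knockout TAC. It was at 0.347, 0.245, 0.473 and 0.608 FPKM in wild-type sham and 0.883, 0.199, 0.758, 0.503 and 0.328 FPKM in wild-type TAC. Tyms again separated the knockout groups, with a rise of 0.44 ± 0.14 (limma adjusted p = 0.0349), and it was the member of this role that was not led by knockout TAC libraries 1 and 3 together.

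The chromatin factors Chaf1a and Chaf1b, subunits of the CAF-1 complex that loads histones onto new DNA, rose together in knockout. Chaf1a was at 0.464, 0.676, 0.561 and 0.377 FPKM in knockout sham and 1.43, 1.09, 1.66, 1.03 and 0.685 FPKM in knockout TAC, with a change of 0.56 ± 0.14 (limma adjusted p = 0.0102). Chaf1b was listed at 0 in knockout sham library 1 and was at 0.384, 0.187 and 0.236 FPKM in the other knockout sham libraries, against 0.967, 0.612, 0.894, 0.329 and 0.542 FPKM in knockout TAC. The rise of Chaf1b was 0.54 ± 0.13 (limma adjusted p = 0.00846), and without knockout sham library 1 it was 0.45 and no longer passed (limma adjusted p = 0.0559). In the 17 libraries of the fit the knockout groups overlapped for neither gene. Wild-type Chaf1a was at 0.689, 0.527, 0.596 and 0.508 FPKM after sham and 1.05, 0.310, 0.542, 0.581 and 0.865 FPKM after TAC. Wild-type Chaf1b was at 0.460, 0.282, 0.345 and 0.553 FPKM after sham and 0.579, 0.209, 0.121, 0.494 and 0.234 FPKM after TAC. Both overlapped between the wild-type groups.

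Uhrf1, which carries DNA methylation onto the new strand, had means of 0.681 ± 0.267 FPKM (SD, n = 3) in knockout sham and 1.75 ± 1.02 (n = 5) in knockout TAC. Its change of 0.64 ± 0.23 missed the threshold (limma adjusted p = 0.0545). Slbp, which binds the stem loop of histone mRNA, was at 5.16, 4.996, 5.65 and 4.12 FPKM in knockout sham and 5.48, 6.10, 6.01, 5.36 and 4.90 FPKM in knockout TAC. It was at 5.70, 6.38, 6.33 and 4.75 FPKM in wild-type sham and 5.86, 6.10, 5.81, 5.38 and 5.398 FPKM in wild-type TAC. Slbp overlapped in each pair of groups and did not pass in any contrast.

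Between genotypes, the sham hearts did not differ by the test and the TAC hearts differed in 4 members. In sham hearts 0 members were higher and 0 lower in knockout by limma, with 1 at an unadjusted p under 0.05, where 0.290% of all genes were higher and 0.257% lower. The 4 genes of smallest p there were Chaf1b (log2 difference -0.31 ± 0.14, limma adjusted p = 0.471), Slbp (-0.19 ± 0.10), Ccnd3 (0.17 ± 0.10) and Cdc6 (-0.11 ± 0.08). For Chaf1b, Cdc6 and Rrm1 the 3 knockout sham libraries of the fit were all below the wild-type sham libraries, which was 7.69% of the members against 5.09% of all genes. No member lay above without overlap, against 4.61% of all genes.

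After TAC, 4 of 39 members were higher in knockout than in wild type (10.3%) and 0 were lower, where 2.41% of all genes were higher and 1.78% lower. Ccnd2 differed by 0.56 ± 0.11 on the log2 scale (limma adjusted p = 0.0125), Tk1 by 0.64 ± 0.15 (limma adjusted p = 0.0248), Mcm6 by 0.47 ± 0.11 (limma adjusted p = 0.0259) and E2f1 by 0.70 ± 0.18 (limma adjusted p = 0.0406). Rrm2 differed by 1.19 ± 0.35 and Mcm2 by 0.68 ± 0.19 without passing (limma adjusted p = 0.0667 and 0.0507). Of the 39 log2 differences, 37 were above 0 and 23 had an unadjusted p under 0.05 by limma. Of all 23775 genes, 12556 were above 0 and 4227 had an unadjusted p under 0.05. The 5 knockout TAC libraries lay above all 5 wild-type TAC libraries for Ccnd2, E2f1, Mcm2, Mcm6 and Tk1, 12.8% of the members against 2.44% of all genes. No member lay below without overlap, against 1.71%. In the fit with the 1 FPKM filter 11 of 31 members were higher, where 6.53% of its genes were, and 10 of 30 without E2f1, which met the filter through knockout TAC alone. Ccne1 and Chaf1a, which also needed knockout TAC libraries to meet the filter, were not among the 11.

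Cell type markers moved in the same contrast, and their part in it was not tested. In knockout 2 of 9 fibroblast markers were higher, Col1a1 by 0.95 ± 0.21 and Col3a1 by 0.94 ± 0.22 (limma adjusted p = 0.0216 and 0.0266). Only 6 of the 9 fibroblast differences were above 0, and their median was 0.12. Of all genes, 2.41% were higher and 1.78% lower. Of 8 cardiomyocyte markers 2 were lower, with 6 at an unadjusted p under 0.05. By limma 0 of 10 macrophage markers passed, with 4 at an unadjusted p under 0.05 and all 10 differences above 0.

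These genotype differences rest on few libraries. Without knockout TAC library 1, knockout TAC library 3, wild-type TAC library 2 or wild-type TAC library 5, the count of 4 fell to 1 in each case, and Ccnd2 was the gene left. With the library set as a term in the fit 0 passed by limma, with 3 at an unadjusted p under 0.05, and the difference was 0.26 ± 0.18 for Ccnd2, 0.64 ± 0.26 for Tk1, 0.51 ± 0.20 for Mcm6 and 0.51 ± 0.32 for E2f1. Without knockout TAC libraries 1 and 3 together 0 passed by limma, with 7 at an unadjusted p under 0.05. The 1 wild-type TAC library of the same set as the knockouts, library 5, was at 32.3 FPKM for Ccnd2 against 34.1 to 44.4 FPKM in knockout TAC, and at 2.85 FPKM against 3.48 to 5.97 FPKM for Mcm6. For E2f1 it was at 0.897 FPKM against 0.914 to 3.37 FPKM, and for Tk1 at 1.33 FPKM against 1.77 to 4.08 FPKM. The margin to the nearest knockout TAC library was narrow for Ccnd2 and E2f1. These 4 genes were picked from the same contrast, and 1 library has no replicate, so the values are a description.

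The difference between the TAC responses of the genotypes was tested as an interaction. By limma 0 members passed in either direction, with 12 at an unadjusted p under 0.05, where 0.0210% of all genes had a larger response in knockout and 0.0463% a smaller one. The smallest p belonged to Ccnd2 (0.67 ± 0.18, limma adjusted p = 0.134), Chaf1b (0.64 ± 0.18, limma adjusted p = 0.158), Mcm6 (0.53 ± 0.17, limma adjusted p = 0.194) and Tk1 (0.70 ± 0.23, limma adjusted p = 0.203). The interaction was above 0 for 37 of the 39, with a median of 0.34. Of all 23775 genes, 13169 were above 0 and 3038 had an unadjusted p under 0.05 by limma, with a median of 0.0079. The calls in knockout and their absence in wild type are therefore not shown to be a difference between genotypes. Without wild-type TAC library 5 and knockout TAC library 2, the TAC libraries with the least Nppa of their groups, Ccnd2 passed (0.80, limma adjusted p = 0.0413). It passed in only 1 of 25 alternatives. In that fit 105 of all genes had a larger response in knockout and 112 a smaller one, against 5 and 11 in the main fit.

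Within knockout TAC, libraries 1 and 3 carried most of the replication signal. They were the highest 2 of the 5 for 27 of the 39 members (69.2%), against 9.41% of all genes. Library 3 was the highest for 29 of the 39 (74.4%, against 15.2% of all genes). This pair and library 3 were picked after the values of the members were seen, which by itself raises the members' shares. Relative to the mean of knockout sham, the median member stood 0.46, 0.24, 0.60, 0.10 and 0.05 higher on the log2 scale in knockout TAC libraries 1 to 5. All 5 libraries thus lay above sham in the median, but libraries 4 and 5 only slightly. The number of members above every knockout sham library of the fit was 33, 29, 36, 20 and 17 in the same order. The same counts over all genes were not made, so these have no background to be read against. By role, libraries 1 and 3 led in 9 of 10 licensing and MCM genes, 3 of 4 polymerase genes and 3 of 4 deoxynucleotide genes, but in 2 of 7 G1 cyclins and E2F activators. In a fit without libraries 1 and 3, chosen after seeing the data, 5 members passed as higher in knockout, namely Ccnd1, Ccnd2, E2f1, Mcm6 and Rrm2, and 0 as lower. That was 12.8% of the 39, near the 8.88% of all genes that were higher in that fit, where 7.18% were lower.

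On the wild-type side, library 2 of the TAC group was the lowest of its group for 25 of the 39 members (64.1%), against 21.2% of all genes. Its MCM sum of 10.2 FPKM was the lowest of all 18 libraries. It also had the most Cdkn1a of its group, as given below for p21. Both patterns were chosen after the values were seen.

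**Figure D4:**
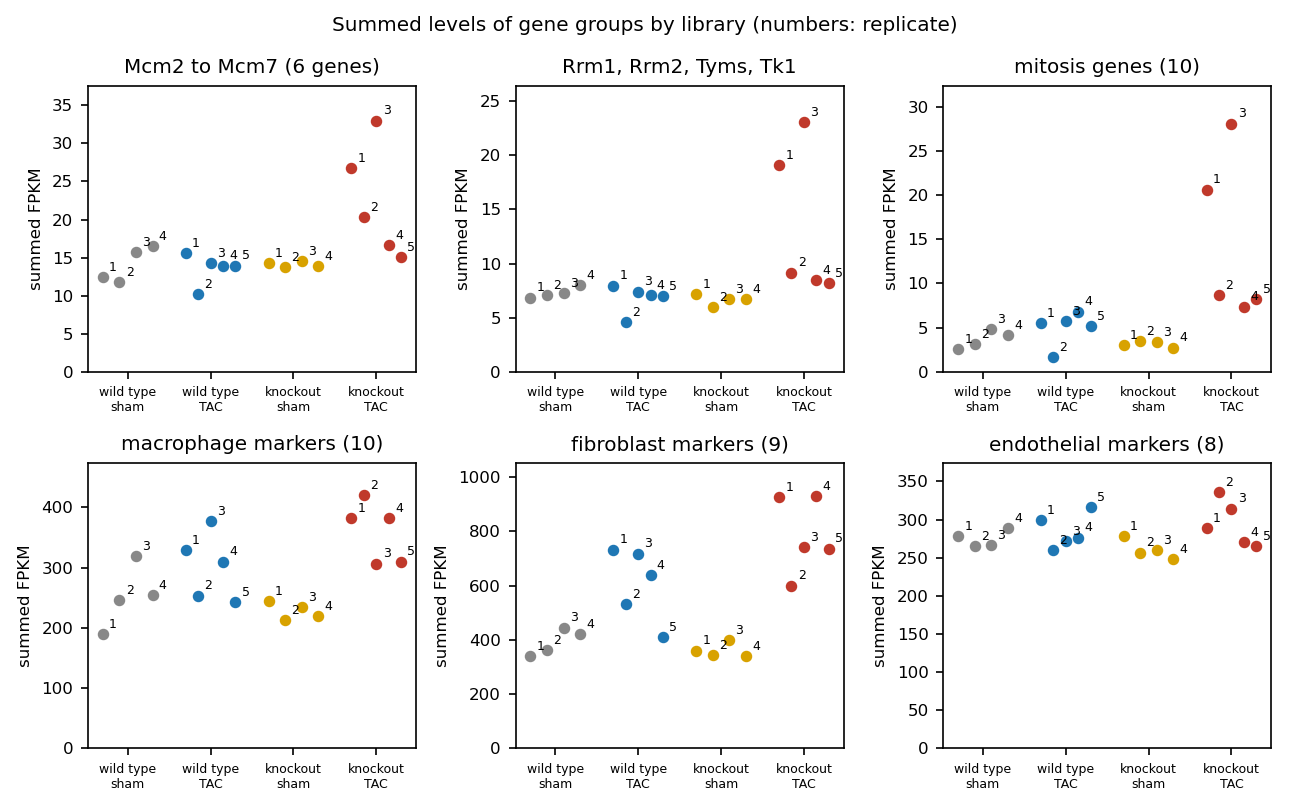
Summed FPKM per library (points, numbered by replicate) of the MCM2 to MCM7 genes, 4 deoxynucleotide enzymes, 10 mitosis genes and the macrophage, fibroblast and endothelial marker lists. Knockout TAC libraries 1 and 3 are highest for the first 3 sums, while for macrophage markers library 2 is highest and for fibroblast markers libraries 1 and 4.

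Some marker levels of other cell types moved with TAC as well, and their part in the results was not tested. Of all genes, 11.0% rose and 9.46% fell in knockout, and 4.43% rose and 4.92% fell in wild type. Among genes at 1 FPKM or more in 3 libraries, 18.5% rose and 15.6% fell in knockout in the same fit. The 10 macrophage markers summed to 219.5 to 244.1 FPKM in the 3 knockout sham libraries of the fit and 306.5 to 419.6 in knockout TAC, with 6 of 10 higher by limma. The 9 fibroblast markers summed to 339.1 to 397.5 FPKM and 599.4 to 928.1, with 7 of 9 higher. In wild type the sums ranged from 189.7 to 318.4 FPKM after sham and 242.3 to 376.8 after TAC for macrophages, with 0 of 10 higher by limma and 1 at an unadjusted p under 0.05, and from 340.6 to 444.5 and 410.0 to 732.4 for fibroblasts, with 4 of 9 higher. Libraries 1 and 3 were the highest 2 of knockout TAC for 0 of 10 macrophage, 1 of 9 fibroblast, 1 of 10 other leukocyte, 0 of 8 endothelial, 0 of 8 pericyte and smooth muscle, 0 of 6 erythroid and 0 of 8 cardiomyocyte markers. The full order of the 5 knockout TAC libraries was not compared between these lists and the replication genes. Endothelial markers summed to 247.9 to 278.3 FPKM in knockout sham and 264.9 to 336.4 in knockout TAC, with 2 of 8 higher, and 6 of 8 cardiomyocyte markers were lower in knockout TAC. The 8 cardiomyocyte markers summed to 47848 to 49611 FPKM in wild-type sham, 44591 to 47488 in wild-type TAC, 48410 to 51659 in the knockout sham libraries of the fit and 39112 to 43839 in knockout TAC. This was the largest of the 7 marker sums in every library, and knockout TAC lay below the other 3 groups without overlap. Ncr1, a natural killer cell gene, was the marker listed at 0 throughout a group (knockout TAC).

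Genes of the same pathway outside the 39 moved in part. Of 21 other G1/S regulators, 5 rose (23.8%) and 2 fell (9.52%) in knockout after TAC, where 11.0% of all genes rose and 9.46% fell. Among those that rose were Myc, a driver of G1 entry (1.71 ± 0.24, limma adjusted p = 9.15e-05), E2f3, another E2F activator (0.47 ± 0.08, limma adjusted p = 0.000492), and Ccna2, the cyclin of S and G2 phase (1.19 ± 0.27, limma adjusted p = 0.00457). In wild type 2 of the 21 rose and 2 fell, where 4.43% and 4.92% of all genes did, with Tfdp2, an E2F partner, lower (-0.40 ± 0.09, limma adjusted p = 0.00710), and Myc (0.98 ± 0.22, limma adjusted p = 0.0103) higher, while Fbxw7, which marks cyclin E for degradation, was lower (-0.38 ± 0.09, limma adjusted p = 0.0139). Of 35 other replisome and origin genes, 3 rose and 3 fell in knockout (8.57% each), no more than the 11.0% and 9.46% of all genes. Their median log2 change in knockout was 0.13. Knockout TAC libraries 1 and 3 were the highest 2 of their group for 14 of these 35 (40.0%), against 9.41% of all genes. Dut, which clears dUTP, fell by 0.68 in knockout (limma adjusted p = 0.000349) and by 0.39 in wild type (limma adjusted p = 0.0241), where it was the 1 gene of the 35 that passed. Topbp1, which helps fire origins, rose by 0.42 (limma adjusted p = 0.00561) and Gmnn, the inhibitor of CDT1, fell by 0.42 (limma adjusted p = 0.00755) in knockout.

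The CDK inhibitor Cdkn1a (p21), which restrains the cyclin kinases, rose in each genotype, by 1.65 ± 0.37 in wild type (limma adjusted p = 0.01003) and 2.23 ± 0.40 in knockout (limma adjusted p = 0.000838). It was at 6.65, 12.2, 11.0 and 6.87 FPKM in wild-type sham, 23.3, 59.7, 24.2, 25.5 and 28.5 FPKM in wild-type TAC, 6.83, 13.5, 6.24 and 23.0 FPKM in knockout sham and 66.8, 26.1, 67.8, 59.3 and 49.2 FPKM in knockout TAC. Knockout TAC libraries 1 and 3, highest in the replication genes, were also highest in Cdkn1a, and wild-type TAC library 2, lowest in them, was highest of its group. Cdkn1c (p57) fell by 0.68 (limma adjusted p = 0.00216) and Cdkn2d (p19) rose by 0.30 (limma adjusted p = 0.0384) in knockout, and Cdkn1b (p27) fell by 0.27 (limma adjusted p = 0.0496). Of the 10 mitosis genes 9 rose in knockout and 0 in wild type by limma, where 0 had an unadjusted p under 0.05. Of all genes, 11.0% rose in knockout and 4.43% in wild type. In the interaction of genotype and TAC, 0 of the 10 passed by limma, with 5 at an unadjusted p under 0.05. The mitosis genes summed to 2.74 to 3.38 FPKM in the knockout sham libraries of the fit. In knockout TAC they summed to 20.6, 8.68, 28.1, 7.37 and 8.25 FPKM, with libraries 1 and 3 the highest 2 for all 10 genes. Between the TAC groups, Dscc1 of the other replisome genes (0.27 ± 0.07, limma adjusted p = 0.0467), Ccna2 and Cdk6 of the other G1/S regulators (0.93 ± 0.23 and 0.26 ± 0.07, limma adjusted p = 0.0359 and 0.0442) and Ccnb2 and Ccnb1 of the mitosis genes (0.88 ± 0.19 and 0.90 ± 0.22, limma adjusted p = 0.0155 and 0.0340) were higher in knockout.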

How the data were processed

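The 18 heart libraries were prepared from 1.3 ug of total RNA each with a SMARTER mRNA-seq kit, per the labels' protocols. The authors deposited 1 table of values per gene and library on mm10, per the submitters' processing notes; an aligner, a counter and the handling of strand are not named in the sources used here. The deposited values were taken as FPKM from their behaviour: they were not whole, summed to 390453 to 432264 per library, and, multiplied by transcript length over 25731 genes, gave totals of which the highest was 6.13% above the lowest. Depth is therefore unknown, and no counting interval was computed. By the annotation, 17 of the 39 genes share exon bases with a gene on the opposite strand, whose reads could be counted with theirs.

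Values were tested as log2(FPKM + 1) with limma 3.58.1 (trend and robust) in R 4.3.3 over the 23775 genes above 0 in at least 1 of 17 libraries, with all 4 groups in 1 fit and Benjamini-Hochberg adjustment at 0.05. Knockout sham library 2 stayed out because of its joined name. Its SD of log2 ratios to the mean of libraries 3 and 4 was 0.124 over 2658 genes, against 0.150 for library 1. Between the single libraries 3 and 4 that SD was 0.253. Whether library 2 is a mix of libraries 3 and 4 was not tested. The fit was also run on simulated data with independent noise per gene and 200 genes moved by 1 on the log2 scale in every knockout TAC library. That setting differs from these data, so the run does not bear on calls that rest on few libraries. Each G1 cyclin, the 12 members with the smallest p in knockout after TAC and the 4 with the smallest p in each other contrast are given by library, and up to 3 genes of each other pathway list; other genes were named after their values were seen. Members and lists were chosen with earlier results of these data known. Alternatives were all 18 libraries, a filter of 1 FPKM in 3 libraries, a pseudocount of 0.1, median-ratio scaling, the groups compared alone, a library set term, a replicate block and left-out libraries. Promoters and coordinates are from RefSeq GRCm38.p6, to which all 34714 symbols matched.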

Additional observations from a re-analysis of the deposited data

Results flagged for a closer look

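Of 117 groups of 4 or 5 libraries of the 39 genes, 4 held a library far from the rest of its group by Dixon's criterion at the 95% level. Chance flags about 5% of groups by that criterion. Ccne1 was at 1.61 FPKM in wild-type TAC library 3, against 0.812 to 0.874 FPKM in the rest of that group. Prim1 was at 0.712 FPKM in wild-type sham library 2, below the 0.886 to 0.903 FPKM of the other sham hearts. Lig1 was at 1.47 FPKM in wild-type sham library 3, against 1.24 to 1.26 FPKM. Rrm1 was at 4.40 FPKM in wild-type sham library 4, against 4.05 to 4.10 FPKM.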

How the results depend on the processing

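The alternatives reversed no direction among the named genes: 613 values of single genes kept their side of the threshold, 120 fell short of it and 11 came past it. The 613 include values that failed in both fits. These genes were picked by their p in the main fit and the alternatives share most of its libraries, so reversals were unlikely from the start. The rise of Ccnd2 and of Mcm6 in knockout after TAC passed under all 26 alternatives, that of Ccnd1, Ccne1 and Chaf1a under 25 of 26, that of E2f1 under 24 and that of Rrm2 under 21, while Mcm3 passed under 8, Mcm2 under 9 and Tk1 under 10 of 26 and Ccne2 under 9 of 25. The count of members that rose in knockout was 13, and it was 8 with only the groups compared in the fit, 5 without knockout TAC libraries 1 and 3 (chosen after seeing the data) and 5 to 16 on leaving out 1 library. It was 6 without knockout sham library 1, 5 without library 3 and 7 without library 4 of that group, and 8 without knockout TAC library 1 or 3. The 4 members higher in knockout than wild type after TAC became 11 with the 1 FPKM filter, 1 with only the groups compared, 0 with the library set term, 0 without knockout TAC libraries 1 and 3, and 1 to 12 on leaving out 1 library, with 7 without knockout TAC library 2 or 4, 12 without library 5 and 2 without wild-type TAC library 4. In wild type after TAC, 2 members rose (Ccnd2 and Ccnd3) and 1 fell (Pold1) with the filter; Pold1 was also the 1 that fell with the set term and without wild-type TAC library 5 and knockout TAC library 2, and Rrm1 was the 1 that fell without knockout TAC libraries 1 and 3. Leaving out 1 library gave 0 to 1 rising (Ccnd3 without wild-type sham library 2 or knockout TAC library 4, Ccnd2 without wild-type TAC library 2) and 0 to 1 falling (Rfc1 without wild-type sham library 4, Pold1 without wild-type TAC library 5). The interaction gave 1, Ccnd2, without wild-type TAC library 5 and knockout TAC library 2. The cause of these shifts was not tested.

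Groups share replicate numbers, but same-numbered libraries did not deviate together: the correlation of their deviations from the group means was -0.0575, 0.165, -0.0102 and -0.0490 for the wild-type pairs and 0.0153, -0.0144 and 0.0772 for the knockout pairs. With the replicate number as a block, 16 members rose in knockout after TAC, 5 were higher in knockout than wild type after TAC and 0 passed in wild type. Depth being unknown, levels under 1 FPKM, the mean of 12 members, carry an error that the files do not give.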
